A study of Caenorhabditis elegans with 4 samples.

Results

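The arms of chromosome IV, taken as the outer 25% at each end, held 454 of the 3009 ASH-2 peaks in the peak list deposited for the whole series. A peak was a member when its midpoint lay below 4373448 or above 13120345 on a chromosome of 17.5 Mb in the WormBase WS220 build. The right arm had 308 members and the left arm 146, and the middle of the chromosome, called the centre here, had 135 peaks. The members were chosen by position alone, so their scores, widths and overlaps with the replicate lists played no part in the choice.

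The study profiled ASH-2 by ChIP-seq in Caenorhabditis elegans. The 2 ChIP samples (replicates 1 and 2) used a rabbit polyclonal antibody, ASH-2 SDQ3989, and 2 samples of input DNA accompanied them. All 4 came from whole hermaphrodite worms of strain fem-2(b245), genotype fem-2(b245)III, labelled as young adults with a germline and kept at 20 degrees Celsius. The protocol for growth calls them gravid instead, and no wild-type group is among these samples. Worms were grown as synchronized cultures, so each sample pools many animals. The germline and the soma were not separated, so no peak can be assigned to a cell type. Peaks were analysed from 3 lists, the series list with 3009 peaks, replicate 1 with 379 and replicate 2 with 1901. Values of the input samples were not analysed here. The lists hold no read counts, so depth is unknown, and nothing in the labels says that the replicates were separate cultures, so their spread may be technical.

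ASH-2 is a core subunit of the COMPASS-type complexes, which methylate histone H3 on lysine 4, a modification found at the promoters of active genes. In C. elegans, ASH-2 and this modification act in the germline. The fem-2 gene encodes a protein phosphatase needed for male fates, including spermatogenesis, and b245 is a temperature-sensitive allele. The arms of C. elegans autosomes recombine more than the centres and carry more repeats, whereas the centres hold more of the essential and broadly expressed genes. The right arm of chromosome IV also carries a broad cluster of genes for 21U-RNAs, the piRNAs of the worm. Peaks were not assigned to genes or to 21U-RNA loci here, because neither an annotation nor a genome of that build was used.

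The right arm was much fuller than the left. Density in the series list was 70.4 peaks per Mb for the right arm, 33.4 for the left arm and 15.4 for the centre. The right arm therefore held 2.11 times as many members as the left, or 67.8% of them (95% Wilson interval 63.4 to 72.0%). In the replicate 1 list the arms held 29 and 12 peaks, right and left, a ratio of 2.42. In the replicate 2 list the right arm held 160 and the left 119, a ratio of 1.34. The right arm was the fuller one in every list, but the excess was smaller in replicate 2, and the mean ratio was 1.88 ± 0.758 (SD, n = 2). By covered length, the right to left ratio was 2.55 in the series list (116 kb on the right arm and 45.4 kb on the left), 3.45 in replicate 1 and 1.89 in replicate 2. No test was applied to these or the following contrasts, since peaks of a list are not replicates and neighbouring peaks are not independent. The Wilson intervals cover counting error only.

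By number of peaks, both arms were denser than the centre in the series list, by 4.56 times for the right arm and 2.16 times for the left. Each replicate list had a smaller excess for the arms together, of 1.64 times in replicate 1 and 1.74 times in replicate 2 (mean 1.69 ± 0.0734, SD, n = 2), against 3.36 times in the series list. The left arm alone was no denser than the centre in replicate 1, at 0.960 times, and 1.49 times as dense in replicate 2. By covered length the excess was smaller or absent. Series peaks covered 2.64% of the right arm, 1.04% of the left arm and 1.15% of the centre. For the arms together, coverage was 0.977% in replicate 1 and 1.51% in replicate 2, against 0.846% and 1.56% for the centre. Among the 10 autosome arms, the right arm of chromosome IV ranked 4 by density in the series list, and the left arm ranked 8. In replicate 2 the right arm was the densest of the 10, with 36.6 peaks per Mb, while in replicate 1 it ranked 6 with 6.63 per Mb. The rank of an arm thus depended on the list.

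**Figure D1:**
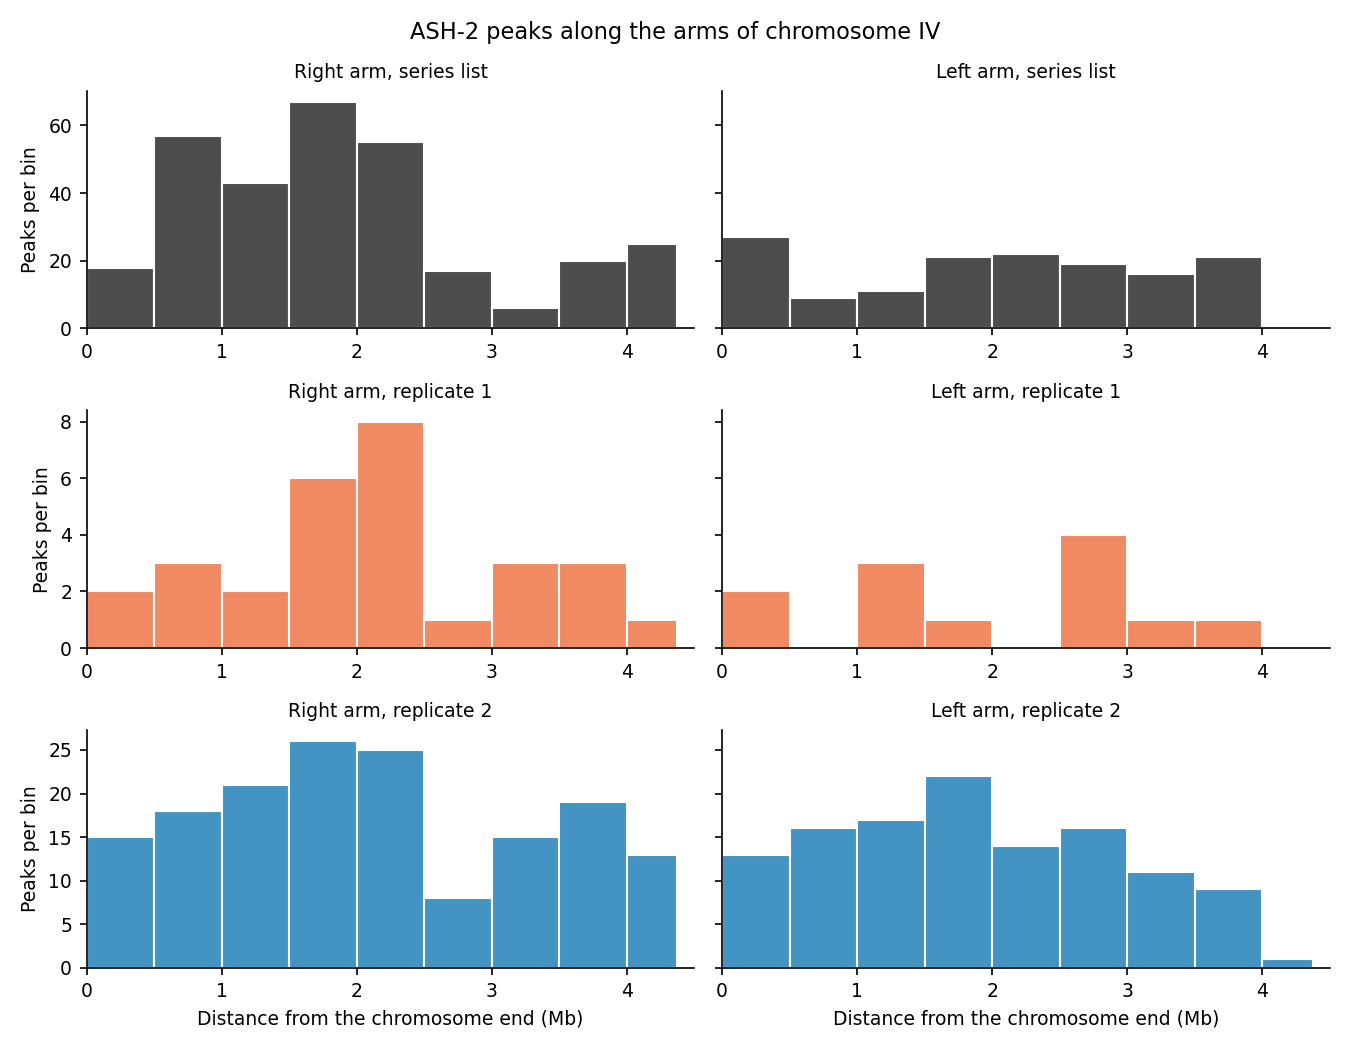
Peaks in bins of 0.5 Mb (the innermost bin is shorter) by distance from the chromosome end in Mb, for the right arm in the first column and the left arm in the other, with a row for the series list, replicate 1 and replicate 2. In the series list the right arm has 43 to 67 peaks in each bin between 0.5 and 2.5 Mb from its end, and no bin of the left arm has more than 27.

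In the series list, members of the right arm were gathered in its outer part. The stretch from 0.5 to 2.5 Mb before the right end, picked after the counts were seen, held 222 of 308 members, 72.1% (66.8 to 76.8%), on 45.7% of the arm, or 111 per Mb. Replicate 1 had 19 of its 29 right-arm peaks there (65.5%, 47.3 to 80.1%), and replicate 2 had 90 of 160 (56.3%, 48.5 to 63.7%). The same distances on the left arm held 63 of 146 members (43.2%, 35.4 to 51.3%), with 4 of 12 replicate 1 peaks (33.3%, 13.8 to 60.9%) and 69 of 119 replicate 2 peaks (58.0%, 49.0 to 66.5%). The contrast between the arms was therefore present in the series list and, over few peaks, in replicate 1, and absent from replicate 2. Along the left arm, members of the series list were spread more evenly, with its fullest bin of 27 members at the very end and 9 to 22 in the 7 bins after it. Its innermost bin, from 4 Mb to the boundary, held no member, no replicate 1 peak and 1 replicate 2 peak.

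The right-arm members among the 100 highest scores of the whole list lay mostly in the inner 2.19 Mb, which held fewer members. The outer 2.19 Mb of the right arm held 210 members and the inner 2.19 Mb held 98. Of the 14 right-arm members among the 100 highest scores of the whole series list, however, 10 lay in the inner part and 4 in the outer. This split cuts through the stretch from 0.5 to 2.5 Mb. The inner sites starting at 15076453, 15078474 and 15079446 stood in a single cluster. They and the inner site starting at 15188379 lay inside that stretch. Of the 32 right-arm members among the 300 highest scores, the bins from 0.5 to 2.5 Mb held 4, 4, 6 and 8. The outermost bin held 1, and the bins from 2.5 Mb inwards held 1, 2, 4 and 2. Members at that cut were therefore not mostly in the inner part. Among their own 100 highest scores, the replicate lists had 8 inner and 2 outer right-arm peaks in replicate 1 and 9 inner and 1 outer in replicate 2. The lists hold 3009 (series), 379 and 1901 peaks, so these cuts are unlike. In replicate 2, 96 peaks of the whole list were tied at 3100. Its inner peaks starting at 15076440, 15078451 and 15080917 lay over a single cluster of members. Median scores were not higher in the inner part in every list. They were 4.29 (outer) and 5.12 (inner) over right-arm members, 128 and 450 in replicate 1, but 110 and 92.1 in replicate 2. On the left arm the 2 parts had 80 and 66 members, outer and inner, with medians of 4.43 and 4.40. The sparsest bin of the right arm, 3.0 to 3.5 Mb from the end, had 6 members, whose median score was 10.9 and median width 787 bp, and it held 15 peaks of replicate 2.

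Most members were narrow and weak. The median width was 216 bp (95% interval of the median 206 to 231 bp), with quartiles of 169 and 327 bp, and 24 of 454 members (5.29%) were 1000 bp or wider. In the centre the median was 362 bp (286 to 454 bp), and 22 of 135 peaks (16.3%) were that wide. The right and left arms had almost the same median in the series list, 217 and 216 bp, and 6.17% and 3.42% of their members were 1000 bp or wider. In the replicate lists the right-arm median was the larger. It was 1899 bp (1594 to 2862 bp, 29 peaks) against 1390 bp (1189 to 1962 bp, 12 peaks) for the left arm in replicate 1, intervals that overlap. In replicate 2 it was 299 bp (282 to 341 bp) against 251 bp (230 to 271 bp). On the 4 other autosomes, the arm peaks had a median of 237 bp (230 to 245 bp). In replicate 1 the arm peaks of chromosome IV had a median of 1804 bp, and in replicate 2 the median was 280 bp, so width compares only within a list.

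The score, which the authors deposited with no name for its type, ranks peaks within a list. Its median over members was 4.56, with a lowest value of 1.37 and a highest of 83.58, and 403 of 454 members scored below 10. The centre had a median of 6.31 (5.34 to 7.25), the other autosome arms 4.56 and the whole series list 4.84. Scores were coarse, with 119 distinct values among the members, and 33 members shared the value 4.04. The right arm had a long upper tail. Of the 50 highest scores in the whole series list, 9 were on the right arm, 1 on the left arm and 3 in the centre of chromosome IV. These were 2.92% of right-arm members, 0.685% of left-arm members and 2.22% of the peaks in the centre. Chromosome IV arms made up 15.1% of the whole list and 20.0% of these 50, and 12.9% of the 1000 highest scores. The right arm held 10.2% of the whole list and 10.7% of the 300 highest scores. Those 300 included 10.4% of right-arm members, against 20.7% of the peaks in the centre. Wider members tended to score higher (Spearman's rho = 0.551, n = 454 members of a single list, given as a description).

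**Figure D2:**
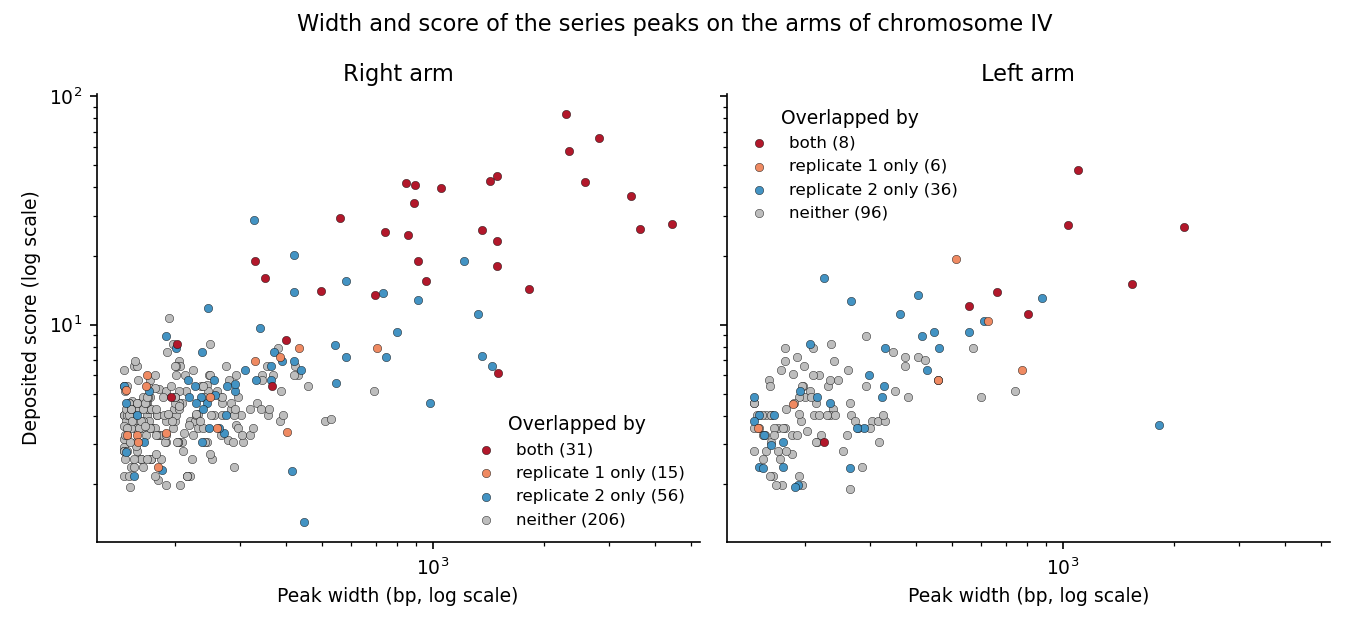
Score against width in bp (both log scales) for the 308 right-arm and 146 left-arm members of the series list, coloured by the replicate lists that overlap each member. Members overlapped by both replicates lie mostly at the upper right, and those overlapped by neither are narrow, with scores of at most 10.7.

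Overlap with the replicate lists, counted from 1 bp, was limited. Replicate 1 overlapped 60 members, 13.2% (10.4 to 16.6%), where it overlapped 21.6% of the whole series list. Replicate 2 overlapped 131 members, 28.9% (24.9 to 33.2%), against 36.6% of the whole list. Both replicates overlapped 39 members (8.59%, 6.35 to 11.5%), against 10.6% of the whole list. A further 21 members were overlapped by replicate 1 only (4.63%), with 11% in the whole list, and 92 by replicate 2 only (20.3%), with 26% in the whole list. Neither list overlapped 302 members, 66.5% (62.1 to 70.7%), against 52.4% of the whole list, and 152 members (33.5%) were overlapped by at least 1 replicate, against 47.6% of the whole list. Without replicate 1 that last share was 28.9%, and without replicate 2 it was 13.2%, so replicate 2 supplied most of it.

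The arms were alike in these shares and the centre was not. At least 1 replicate overlapped 33.1% (28.1 to 38.6%) of right-arm and 34.2% (27.0 to 42.3%) of left-arm members, but 83.7% (76.6 to 89.0%) of the peaks in the centre. Replicate 1 overlapped 14.9% (11.4 to 19.3%) of right-arm and 9.59% (5.80 to 15.5%) of left-arm members, intervals that overlap each other. The other autosome arms had a larger share overlapped by replicate 1 than chromosome IV arms, at 23.4% (21.5 to 25.3%), and a replicate 2 share of 25.6% (23.6 to 27.6%). Of their peaks, 8.56% were overlapped by both replicates, 40.4% (38.2 to 42.6%) by at least 1 and 59.6% (57.4 to 61.8%) by neither. Shares in neither as high as 66.8% and 65.8% also occurred on the left arms of chromosomes V and I, so a low overlap was not particular to chromosome IV. By the replicate 1 share, the left and right arms of chromosome IV were the lowest 2 of the 10 autosome arms. The lowest among the other arms was the left arm of chromosome II, at 17.1%.

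Members with high scores were mostly overlapped by at least 1 replicate, as in the whole list. Members above the upper quartile of the whole list, scores of 6.99 and more, numbered 86, and 71 of them (82.6%, 73.2 to 89.1%) were overlapped by at least 1 replicate. Replicate 1 overlapped 46.5% of the 86 and replicate 2 overlapped 76.7%, against 48.5% and 72.7% of all series peaks in that class. In the next class, scores of 4.88 to 6.97, the share overlapped by at least 1 was 32.6% of 95 members. From 3.56 to 4.84 it was 15.2% of 132 members, and at 3.53 or less it was 21.3% of 141. In the highest class the right arm reached 90.9% (80.4 to 96.1%) of 55 members and the left arm 67.7% (50.1 to 81.4%) of 31. In the centre the share was 98.3% of 58 peaks in the highest class, 80.6% (63.7 to 90.8%) of 31 in the second, 82.6% (62.9 to 93.0%) of 23 in the third and 52.2% (33.0 to 70.8%) of 23 in the lowest. Over all series peaks the shares were 84.7%, 45.8%, 33.0% and 29.2% from the highest class to the lowest. Members of the highest class were thus close to the whole list, and those of the lower classes were below it.

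**Figure D3:**
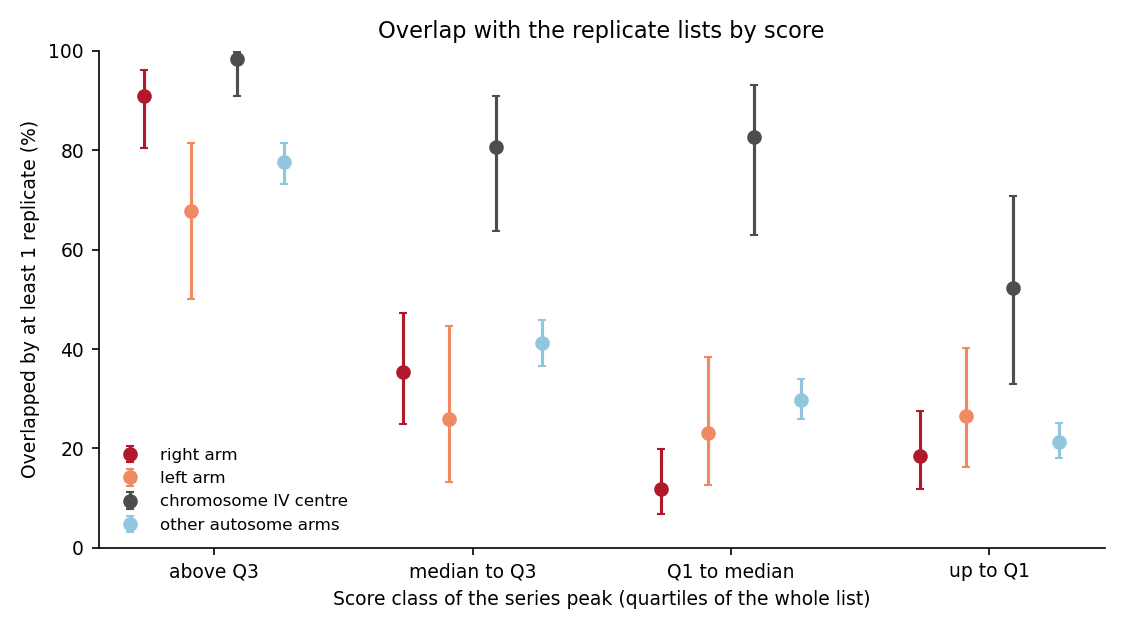
Share of series peaks overlapped by at least 1 replicate list, in percent, by score class (cut at the quartiles of the whole list, Q1 and Q3 being the lower and upper ones), with 95% Wilson intervals, for the right arm, the left arm, the centre of chromosome IV and the arms of the 4 other autosomes. On both arms of chromosome IV the share drops from the highest to the second class, to 35.3% on the right arm and 25.9% on the left, while the centre is at 80.6% in the second class.

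The classes of members also differed in size. The 39 members found in both replicates were 957 bp wide with a score of 24.7 at the median. The 302 found in neither were 198 bp wide with a score of 4.04 at the median, and their highest score was 10.74, at 14337063 to 14337255 on the right arm. On the right arm the 31 members found in both had a median score of 25.4, against 14.5 for the 8 on the left arm. Across members with a replicate 2 peak, series score and replicate 2 score were related with Spearman's rho = 0.772 on the right arm (n = 87) and 0.400 on the left (n = 44). With replicate 1 the values were 0.451 on the right arm (n = 46) and 0.452 on the left (n = 14). Several members can share a replicate peak, and the series list may draw on the same reads, so these are descriptions.

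From the side of the replicates, every arm peak of replicate 1 had a series peak. All 41 of them were overlapped by the series list (91.4 to 100%), and 34 (82.9%, 68.7 to 91.5%) by replicate 2. Of these 41, 14 overlapped 2 or more members, up to 4 for a single replicate 1 peak. In the centre, all 25 replicate 1 peaks were also overlapped by the series list, and 23 (92%) by replicate 2. A full overlap with the series list was therefore not particular to the arms. Replicate 2 had 279 arm peaks, of which 146 (52.3%, 46.5 to 58.1%) were in the series list. The arms differed here, with 98 of 160 on the right arm (61.3%, 53.5 to 68.5%) and 48 of 119 on the left (40.3%, 32.0 to 49.3%). In the centre the share was 61.9% (54.2 to 69.0%), so the right arm was close to the centre and the left arm was below both. Replicate 1 overlapped 55 of the 279 arm peaks of replicate 2 (19.7%, 15.5 to 24.8%). In the centre it overlapped 40 of 160 (25%, 18.9 to 32.2%). Shares over all peaks of each replicate list were not computed. The 133 arm peaks of replicate 2 that the series list lacked were narrower and weaker at the median, with 238 bp and a score of 72.9, against 357 bp and 155 for those it held. The highest replicate 2 score among those missing was 499, on the right arm, and on the left arm it was 199.

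The strongest site of the whole list lay on the right arm. It ran from 13921967 to 13924261, 2295 bp wide, with a score of 83.58. Replicate 1 called it as a peak of 3179 bp with a score of 2901.92, rank 12 of 379, and replicate 2 called it as 2 peaks, the larger of 2177 bp with a score of 3100. A score of exactly 3100 was shared by 96 replicate 2 peaks, of which 10 were on the arms of chromosome IV. The site stood in a cluster of 4 members spanning 4015 bp, from 13921062 to 13925076, in which the lowest score was 1.99. The same replicate 1 peak also reached a second member of that cluster.

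The right-arm members in places 2 and 4 by score were neighbours. The higher, from 15079446 to 15082270 (2825 bp), scored 65.46, rank 5 in the whole list. The other, from 15076453 to 15077943 (1491 bp), scored 44.93, and a smaller member of 890 bp, scoring 34.05 and in place 11 on the arm, lay between them. All of these belonged to the longest cluster on either arm, 5 members over 6912 bp from 15076014 to 15082925, of which 82.8% was covered by peaks. Replicate 1 had 2 peaks there, of 4179 and 1804 bp, and replicate 2 had 5. Each of the 5 members was overlapped by replicate 2 and 3 of them by replicate 1.

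The third member of the right arm stood apart from any neighbour. It ran from 14056944 to 14059288 (2345 bp) with a score of 57.27, rank 12 in the whole list. Replicate 1 had a peak of 3094 bp with a score of 1476.52 over it, and replicate 2 had 2 peaks, the larger of 1156 bp scoring 3100. The nearest members were 66907 bp before it and 239005 bp after it, the longest gap on the arm. That gap held 5 peaks of replicate 2 and none of replicate 1.

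The rest of the 12 highest-scoring right-arm members were also shared. All 12 were overlapped by both replicates and all 12 were among the 100 highest scores of the whole list, from 29.23 to 83.58. Their widths ran from 562 to 3449 bp in the series list, from 1754 to 4179 bp in replicate 1 and from 565 to 3398 bp in replicate 2. The last of them in score, from 16910600 to 16911161, also had the lowest score of the 12 in each replicate, 104.43 in replicate 1 and 962.33 in replicate 2. The member nearest the right end among the 12, from 17059597 to 17063045, was 3449 bp wide and scored 36.57, with 286.55 in replicate 1 and 3100 in replicate 2. The highest right-arm score outside the 12, 28.57 at 16458546 to 16458873, belonged to a member overlapped by replicate 2 only.

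The left arm had fewer such sites. Its highest-scoring member ran from 1476066 to 1477162 (1097 bp) and scored 47.35, rank 23 in the whole list. Replicate 1 called it at 1586 bp with a score of 271.32 and replicate 2 at 1287 bp with 3100, the only left-arm peak of that list to reach that score. The next, from 1344757 to 1345788, scored 27.18, with 72.52 in replicate 1 and 1342.38 in replicate 2. The third and widest, from 2573975 to 2576102 (2128 bp), scored 26.68, with 718.95 in replicate 1, the highest replicate 1 score on that arm, and 1995.62 in replicate 2. The replicates thus put these 3 sites in different orders.

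Below these the left-arm sites were shared less evenly. Of its 12 highest-scoring members, 6 were overlapped by both replicates, 5 by replicate 2 only and 1 by replicate 1 only, and 3 were among the 100 highest scores of the whole list. The member found in replicate 1 only, from 2709954 to 2710467, scored 19.38, with 249.43 in replicate 1. The fifth in score was a narrow peak of 226 bp from 2421093 to 2421318 with 15.94, and its replicate 2 peak of 229 bp scored 93.97. The twelfth place, a score of 11.12, was tied between a member at 62007 to 62369 and one at 222222 to 223027, and the first by position was taken. The median width of the 12 was 1462 bp on the right arm and 609 bp on the left. Scores ran from 29.23 to 83.58 in the right-arm set and from 11.12 to 47.35 in the left-arm set. Neither width nor overlap is therefore compared at like scores here.

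**Figure D4:**
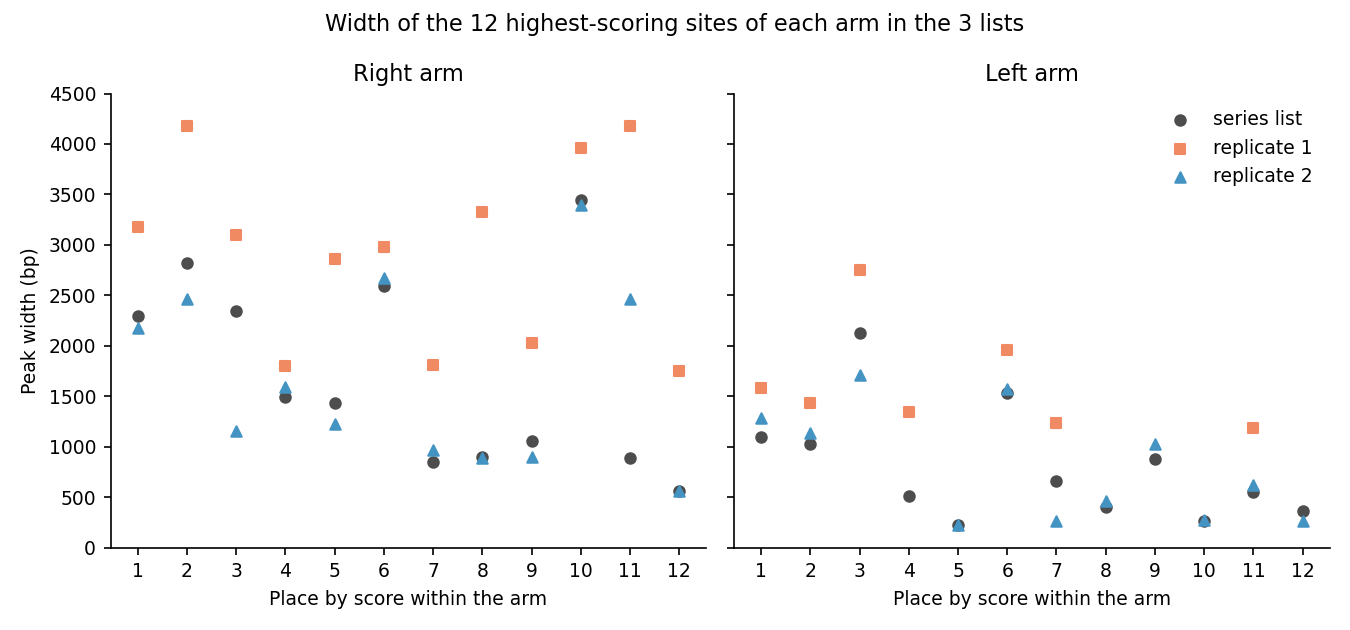
Width in bp of the 12 highest-scoring members of the right arm and of the left arm, by place in score within the arm, in the series list (circles), replicate 1 (squares) and replicate 2 (triangles). A missing symbol means no overlapping peak, as for 5 left-arm sites in replicate 1 and 1 in replicate 2, and every replicate 1 peak is wider than the series peak.

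Width picked out a few further sites. The widest member, from 14476590 to 14481041 on the right arm, spanned 4452 bp with a score of 27.44 and was overlapped by 2 peaks of each replicate. The next, from 13929672 to 13933326 (3655 bp), scored 26.18, with a replicate 1 peak of 4418 bp and a replicate 2 peak of 3631 bp. On the left arm the second widest member went against the trend of width and score. It ran from 2828590 to 2830409 (1820 bp) with a score of 3.64, rank 2151 in the whole list, although its replicate 2 peak of 2189 bp scored 2307.48, rank 142 of 1901 in that list. Replicate 1 had no peak there.

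Members of the right arm lay closer together than those of the left. The median gap between adjacent members was 3680 bp on the right arm and 8348 bp on the left, and it was 1196 bp in the centre. Gaps of 1000 bp or less made up 30.9% (26.0 to 36.3%) of 307 gaps on the right arm, 20.7% (14.9 to 28.0%) of 145 on the left and 47.0% (38.8 to 55.4%) of 134 in the centre. The centre also had the widest gaps, with 42 of more than 50 kb, against 20 on the right arm and 25 on the left. Peaks in the centre were thus both more bunched and farther apart between bunches, whereas the arms had a more continuous range of gaps.

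**Figure D5:**
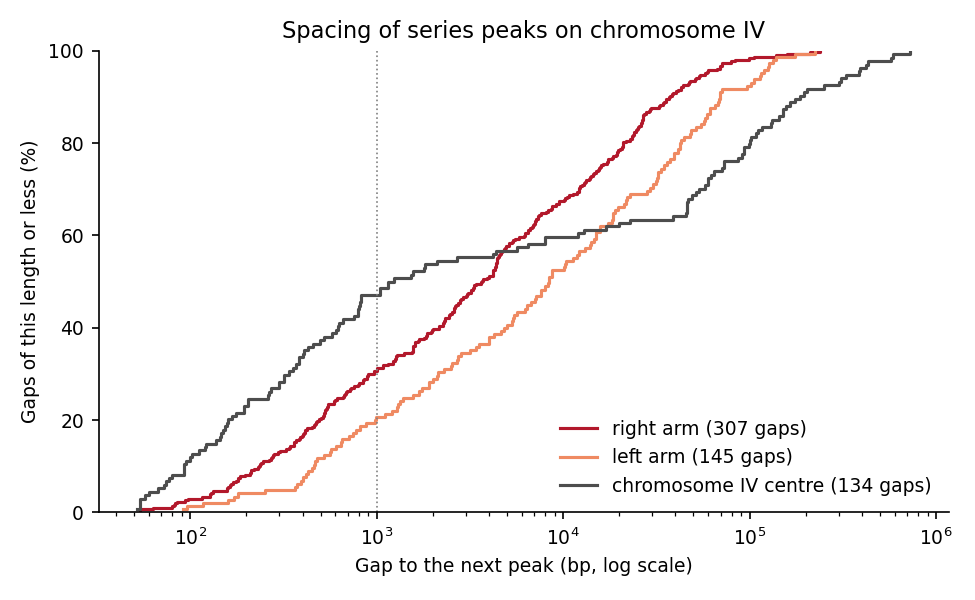
Cumulative share, in percent, of gaps between adjacent series peaks at or below a given length (bp, log scale) for the right arm, the left arm and the centre of chromosome IV, with a dotted line at 1000 bp. The right-arm curve lies above the left-arm curve at 1000 bp (30.9% and 20.7%), and the centre curve is the highest there (47.0%).

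Clusters were defined as 3 or more peaks with gaps of 1000 bp or less. The right arm had 21 clusters with 83 members, 26.9% (22.3 to 32.2%) of its members, and the left arm had 5 with 19 members, 13.0% (8.49 to 19.4%). The centre had 14 with 68 peaks, 50.4% (42.0 to 58.7%). Joining peaks that close left 213 separate sites on the right arm and 116 on the left, a ratio of 1.84. Members in clusters had a median score of 5.12 on each arm, against 4.29 for the other right-arm members and 4.04 for the other left-arm members. At least 1 replicate overlapped 45.8% of clustered right-arm members and 28.4% of the others, and on the left arm 52.6% of 19 and 31.5% of 127. In the centre it was 97.1% of 68 and 70.1% of 67, so the contrast was not particular to the arms. Over all series peaks the share was 47.6%. Clustered members were also wider at the median, 264 against 207 bp on the right arm and 299 against 211 bp on the left. Several members of a cluster can share 1 replicate peak.

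The fullest clusters of the right arm were unlike each other. The 6 members from 13460809 to 13465023 had scores up to 40.84, with 4 overlapped by replicate 1 and 3 by replicate 2. A single replicate 1 peak of 3329 bp lay over that cluster. The other cluster of 6, from 16515370 to 16519947, had scores of 2.39 to 5.70, and no member was overlapped by either replicate, although 1 replicate 2 peak lay in its span. Peaks covered 63.9% of the first cluster and 28.0% of the other. Of the clusters with 5 members, that from 15737444 to 15741125 had 1 member with a replicate 2 peak and none with a replicate 1 peak. The cluster from 15224265 to 15227606 had 3 members with a replicate 2 peak and none with a replicate 1 peak. The cluster from 15454804 to 15458977 had 2 with a replicate 1 peak and none with a replicate 2 peak.

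Clusters of the left arm were few. The largest had 5 members over 3824 bp, from 221256 to 225079, with scores of 3.06 to 11.12, and was followed by the longest gap between members on that arm, 224529 bp with no peak of either replicate inside it. The clusters from 62007 to 65532 and from 1665647 to 1668658 had 4 members each, of which 2 in each were overlapped by replicate 2. In the second of these, 2 members were overlapped by replicate 1, and in the first none was. For scale, the largest cluster in the centre had 13 peaks over 21847 bp, from 6682724 to 6704570, and each of the 13 was overlapped by replicate 2.

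At the boundaries of the arms, peaks on either side were ordinary ones. On the left, the last member ran from 3789174 to 3789363 with a score of 3.29, 584 kb before the boundary, and the first peak beyond it, from 4416984 to 4417258, scored 5.08. On the right, the first member ran from 13139800 to 13140163 with a score of 5.70, 19.6 kb inside the boundary. The last peak before that boundary, from 13115459 to 13115828, scored 4.37.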

How the data were processed

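ASH-2 ChIP-seq peaks of fem-2(b245) worms were read from 3 deposited lists in WormBase WS220, per the file headers. Peaks came from MACS (replicates) and MACS v2 (series list), per the file headers and source columns. BWA and ce10 are credited to the submitters' processing notes. Calling parameters, controls and any pooling of reads: not given in the sources used here. Each peak's score is the authors' own, its type unnamed in the deposited lists, and was used only within a list.

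From these, overlaps (1 bp or more), gaps, widths, clusters and densities were computed with Python 3.11.15, NumPy 2.4.6, pandas 2.3.3 and SciPy 1.17.1. Figures were drawn with Matplotlib 3.10.9. Where several replicate peaks overlapped a member, the one sharing most bases gave the values. Shares carry 95% Wilson intervals, and medians carry 95% binomial intervals of ranks. The other autosomes were taken to end at the last base of a peak in any list. The functions were tested on simulated data. No significance test was planned or run. Sites were named by rule: the 12 highest-scoring and 5 widest members of each arm, the 3 clusters with most peaks and the 3 longest of each arm, and the peaks beside the boundaries; sites outside this rule were chosen after their values were seen. The members and lists were chosen with earlier results of these data known. Input samples were not analysed here, and genes and sequences were not used, since the gene table at hand follows another build.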

Additional observations from a re-analysis of the deposited data

How the results depend on the processing

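Of 52 values recomputed under other settings, 22 stayed within 1.5 times (counts and densities), the replicate SD (the arm ratio) or their 95% interval, and 30 moved beyond it. A change of direction was scored for the arm ratio alone, since the other values have no direction, and that ratio did not reverse under any setting. With only replicate 1 or replicate 2 in the place of the series list, members ranged from 41 to 279, density from 4.69 to 31.9 per Mb and the right to left ratio from 1.34 to 2.42; the share overlapped by at least 1 replicate ranged from 13.2 to 28.9% when a replicate was left out. Keeping scores at or above the median of the whole list left 203 members, 23.2 per Mb and 7 clusters with 14.3% of members, and raised the shares to 24.1% (replicate 1), 47.3% (replicate 2), 18.2% (both) and 53.2% (at least 1), with 46.8% in neither. Counting peaks within 500 bp gave 36.1% for replicate 2, 40.5% for at least 1 and 59.5% for neither, and arms widened to 33.3% of the chromosome at each end gave 33.5%, 38.2% and 61.8%. Joining gaps of up to 5000 bp gave 48 clusters with 52.9% of members, and requiring 5 peaks gave 7 with 8.15%. Members overlapped by at least 1 replicate were 357 bp wide and scored 6.46 at the median, and formed 8 clusters with 18.4% of them (clusters of these members were added after seeing the data). The causes of these shifts were not tested. The right to left ratio was between 1.84 and 2.55 under the 6 settings that kept the series list, of which joined peaks (1.84), the removal of the fullest bin of each arm (2.03) and restriction to members with a replicate peak (2.04) were added after seeing the data. No paired analysis was possible because the input samples were not used and each ChIP replicate gave 1 list. Depth is unknown, so its part in the difference between the replicate lists was not tested.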

Other observations

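The ends of chromosome IV differed between the lists. At the left end, the first peak of replicate 2 ran from base 2 to 240 with a score of 168.03, whereas the first series peak began at 14597, scoring 2.18, and the first replicate 1 peak at 222100. At the right end, the last replicate 2 peak, 1229 bp wide with a score of 693.95, ended 267 bp before the end, and the last series peak, 545 bp with a score of 8.18, ended 798 bp before it. The last replicate 1 peak ended 430580 bp before the end.

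The longest stretch free of series peaks that touches an arm ran from the last left-arm member, ending at 3789363, to the first peak of the centre at 4416984, a length of 628 kb. Replicate 1 had no peak in it and replicate 2 had 1.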
